A study of Mus musculus with 6 samples.

Results

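The Cyp3a cytochromes of mouse liver are described here through 9 genes chosen by name: *Cyp3a11*, *Cyp3a13*, *Cyp3a16*, *Cyp3a25*, *Cyp3a41a*, *Cyp3a41b*, *Cyp3a44* and *Cyp3a59*, and *Por*, which encodes the reductase that serves them. They are 9 of the 55385 genes in the count table. Poly(A) RNA was sequenced from the livers of wild-type C57BL/6 male mice, 3 with a sham operation (replicates 1 to 3) and 3 with vertical sleeve gastrectomy (VSG, replicates 4 to 6), a bariatric operation in which a narrow gastric tube is left. All 6 mice had a high-fat diet (HFD) from an age of 6 to 8 weeks, for 10 weeks before and 12 weeks after the operation. No lean or chow-fed group was analysed here, so every comparison is between HFD-fed mice that had different operations. Library totals ran from 22804397 to 24191778 counts, and 3 counts in a library, used here as the detection floor, equal 0.111 to 0.143 CPM (counts-per-million).

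Cytochromes P450 are haem enzymes of the endoplasmic reticulum that insert 1 oxygen atom from O2 into fat-soluble compounds. Enzymes of the CYP3A subfamily oxidise drugs, steroids and bile acids and are among the main drug-metabolising enzymes of the liver. They cannot take electrons from NADPH themselves: NADPH-cytochrome P450 reductase, the product of *Por*, passes the electrons on, and cytochrome b5 can assist. Transcription of Cyp3a genes is raised by PXR (*Nr1i2*) and CAR (*Nr1i3*), nuclear receptors that sense drugs and bile acids, and it is known to fall during inflammation. In mice *Cyp3a41* and *Cyp3a44* are known as female-type genes, and *Cyp3a16* as a gene of fetal and young liver.

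All 9 genes lie on chromosome 5 (GRCm38) and are annotated as protein-coding. *Cyp3a16* (145436309 to 145469723), *Cyp3a41b* (145558664 to 145584730), *Cyp3a41a* (145694049 to 145720136), *Cyp3a44* (145773983 to 145805874), *Cyp3a11* (145854426 to 145879964) and *Cyp3a25* (145977194 to 146009618) follow each other on the minus strand. *Cyp3a59* (146079257 to 146113287, plus strand) closes this cluster of 677 kb. *Cyp3a13* (137892932 to 137921619, minus strand) and *Por* (135670033 to 135735326, plus strand) lie outside it. Each Cyp3a gene has 13 exon blocks and *Por* has 19, and none shares an exon base with another annotated gene.

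The copies are so alike that reads can be hard to place. The coding sequences of *Cyp3a41a* and *Cyp3a41b* are 99.9% identical and differ at 2 of 1512 bases, G120A and G336T (the *Cyp3a41a* base first, counted from 1 at the start codon). The stretches around these 2 positions are shown because they hold the only coding bases that tell the 2 genes apart, and the differing base is in capitals.

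Cyp3a41a, coding bases 100 to 140: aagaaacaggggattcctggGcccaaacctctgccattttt

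Cyp3a41b, coding bases 100 to 140: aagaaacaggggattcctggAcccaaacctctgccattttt

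Cyp3a41a, coding bases 316 to 356: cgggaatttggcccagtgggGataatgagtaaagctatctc

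Cyp3a41b, coding bases 316 to 356: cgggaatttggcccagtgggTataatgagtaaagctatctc

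Of the windows of 50 bases along the annotated transcripts of *Cyp3a41a*, 98.6% also occurred in transcripts of another gene, against 93.5% for *Cyp3a41b*, 30.0% for *Cyp3a59*, 26.8% for *Cyp3a25*, 26.5% for *Cyp3a44*, 10.7% for *Cyp3a16* and 6.73% for *Cyp3a11*. *Cyp3a13* and *Por* shared none. *Cyp3a25* and *Cyp3a59* are the next most alike pair, with 97.5% identical coding bases and a longest identical stretch of 162 bases. How reads that match several genes were counted is not given in the sources used here, so the values of all 7 genes that share windows are uncertain to that extent.

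Promoter sequences of 300 bases were taken from RefSeq (GRCm38.p6), which held all 9 genes. Those of the 4 Cyp3a genes that were abundant enough to be tested are printed. Capitals mark TATAAA and the nuclear receptor motifs AGGTCA and AGTTCA on either strand, each written out in the strand of the gene.

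Cyp3a11 promoter (chr5:145879805-145880104, minus strand): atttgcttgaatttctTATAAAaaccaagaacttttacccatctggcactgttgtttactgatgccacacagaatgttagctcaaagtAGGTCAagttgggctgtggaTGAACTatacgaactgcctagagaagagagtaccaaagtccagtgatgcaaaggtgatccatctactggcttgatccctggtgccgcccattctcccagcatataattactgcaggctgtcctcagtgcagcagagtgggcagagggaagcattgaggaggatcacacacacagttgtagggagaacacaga

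Cyp3a25 promoter (chr5:146009569-146009868, minus strand): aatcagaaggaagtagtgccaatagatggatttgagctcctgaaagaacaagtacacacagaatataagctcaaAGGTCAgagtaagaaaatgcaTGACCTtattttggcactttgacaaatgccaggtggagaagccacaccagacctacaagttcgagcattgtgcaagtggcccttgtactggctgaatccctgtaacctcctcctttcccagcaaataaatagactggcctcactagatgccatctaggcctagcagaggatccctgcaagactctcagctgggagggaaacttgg

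Cyp3a59 promoter (chr5:146079008-146079307, plus strand): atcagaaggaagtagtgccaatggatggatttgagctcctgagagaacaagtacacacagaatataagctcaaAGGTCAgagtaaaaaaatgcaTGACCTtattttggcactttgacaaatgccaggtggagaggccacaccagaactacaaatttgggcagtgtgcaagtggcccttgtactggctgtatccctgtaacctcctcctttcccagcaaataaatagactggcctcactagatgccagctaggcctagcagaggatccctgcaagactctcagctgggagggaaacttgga

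Cyp3a13 promoter (chr5:137921570-137921869, minus strand): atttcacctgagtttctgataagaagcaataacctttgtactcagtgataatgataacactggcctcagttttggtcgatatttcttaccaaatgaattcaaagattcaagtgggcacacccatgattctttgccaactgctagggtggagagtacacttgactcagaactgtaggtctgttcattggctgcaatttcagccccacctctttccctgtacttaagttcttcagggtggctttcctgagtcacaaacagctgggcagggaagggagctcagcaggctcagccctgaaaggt

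AGGTCA was in the promoters of *Cyp3a11*, *Cyp3a25*, *Cyp3a44* and *Cyp3a59* and in 16.3% of all 32851 promoters of the same length. AGTTCA was in those of *Cyp3a11*, *Cyp3a41a* and *Cyp3a41b* and in 14.0% of all promoters. The HNF6 core ATTGAT was in *Cyp3a16*, *Cyp3a41a*, *Cyp3a41b* and *Cyp3a44* and in 7.54% of all promoters. TATAAA was in these 4 and in *Cyp3a11*, and in 13.6% of all promoters. The promoters of *Cyp3a13* and *Por* held none of these motifs. The promoters of *Cyp3a25* and *Cyp3a59* were 95.7% identical, and both had AGGTCA on each strand. TTCNNNGAA, the STAT5 motif (8.3% of all promoters), was in none of the 9 windows. Neither were the repeats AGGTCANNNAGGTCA and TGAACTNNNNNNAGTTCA (0.00609% each), AGTTCANNNAGTTCA and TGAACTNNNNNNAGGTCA (0% each). All were searched on both strands. A match or its absence describes the letters of the window and says nothing about binding.

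The comparison asks whether RNA of the Cyp3a cytochromes and their reductase differed after VSG. *Cyp3a11* and *Cyp3a59* fell, *Cyp3a25*, *Cyp3a13* and *Por* did not pass the test, and *Cyp3a16*, *Cyp3a41a*, *Cyp3a41b* and *Cyp3a44* were too low to be tested. Thus 2 of the 5 members tested were called by edgeR at an adjusted p under 0.05, and both were lower after VSG, where 14.7% of the 14454 genes tested were called, 7.87% lower and 6.79% higher. Without sham replicate 3 or VSG replicate 6 neither member passed. Over all genes 981 were called higher and 1137 lower, and 486 and 1512 with scaling by total counts. The libraries of the groups did not overlap in 4 of these 5 members and in 39.7% of all genes tested. The median log2 fold change (VSG over sham) was -0.84 over the 5 members and 0.03 over all genes tested.

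*Cyp3a11* encodes the main CYP3A enzyme of adult mouse liver. It had 41281, 37431 and 56846 counts in sham replicates 1 to 3 and 2884, 11258 and 3737 counts in VSG replicates 4 to 6, or 1524, 1710 and 2160 CPM against 130.5, 481 and 178 CPM. Every VSG library was below every sham library, and VSG replicate 5 stood above the other two VSG libraries. The means were 1798 ± 327 CPM and 263 ± 190 CPM (SD, n = 3 in each). VSG differed from sham by -2.77 on the log2 scale (SE 0.514, 95% interval -3.99 to -1.55, adjusted p 0.0216, edgeR). Of all genes tested, 0.581% had a lower log2 fold change. By counts *Cyp3a11* ranked at positions 51, 70 and 40 among all genes in sham livers and at 867, 232 and 676 after VSG. The call was lost without sham replicate 2 (adjusted p 0.0531, edgeR), sham replicate 3 (0.0911) or VSG replicate 6 (0.0882), with log2 fold changes of -2.81, -2.62 and -2.55.

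*Cyp3a59*, a close copy of *Cyp3a25*, had 989, 598 and 1314 counts after sham surgery and 170, 327 and 151 counts after VSG. This gave 36.5, 27.3 and 49.9 CPM against 7.69, 14.0 and 7.20 CPM. The groups did not overlap, and VSG replicate 5 was again the highest of its group. VSG differed from sham by -1.98 on the log2 scale (SE 0.326, 95% interval -2.75 to -1.20, adjusted p 0.0165, edgeR). It was -1.73 without sham replicate 3 (adjusted p 0.0736, edgeR) and -1.81 without VSG replicate 6 (0.0719), where the call was lost.

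*Cyp3a25*, the second most abundant Cyp3a gene of the sham livers, had 476, 518 and 585 CPM in sham and 199.9, 423 and 261 CPM in VSG livers. The groups did not overlap, but VSG replicate 5 lay close to sham replicate 1. The log2 fold change of -0.84 (SE 0.280, 95% interval -1.50 to -0.17) did not pass the test (adjusted p 0.0890, edgeR). Without VSG replicate 5 it was -1.21 with an adjusted p of 0.0153 (edgeR), and with DESeq2 the adjusted p was 0.0249. For each count of *Cyp3a25* there were 0.0767, 0.0527 and 0.0853 counts of *Cyp3a59* in sham livers and 0.0385, 0.0331 and 0.0276 after VSG. The ratio of the pair was thus lower in each VSG library than in any sham library, while 26.8% of the windows of 50 bases of *Cyp3a59* also occurred in *Cyp3a25*.

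*Cyp3a13*, the Cyp3a gene outside the cluster and known for expression in the intestine as well as the liver, had the opposite sign. Its level was 231, 253 and 219 CPM in sham and 285, 506 and 337 CPM in VSG livers. The VSG libraries lay above the sham libraries, and VSG replicate 5 was the highest. VSG differed from sham by 0.68 on the log2 scale (SE 0.224, 95% interval 0.15 to 1.22, adjusted p 0.0855, edgeR), and only DESeq2 among 13 alternatives gave an adjusted p under the threshold (0.0402). It was 0.55 with scaling by total counts (adjusted p 0.160, edgeR), where the median of all genes tested moved from 0.03 to -0.11. Without VSG replicate 5 it was 0.39 (adjusted p 0.112, edgeR).

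*Por* had 7571, 11940 and 8720 counts in the sham and 4170, 6583 and 4499 counts in the VSG libraries. The levels of 279.6, 545 and 331 CPM in sham and 189, 281 and 215 CPM in VSG livers overlapped, since VSG replicate 5 lay just above sham replicate 1. The estimate of -0.76 on the log2 scale (SE 0.284, 95% interval -1.43 to -0.08) did not pass the test (adjusted p 0.115, edgeR). No alternative brought it past the threshold, and with DESeq2 the adjusted p was 0.0502.

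**Figure D1:**
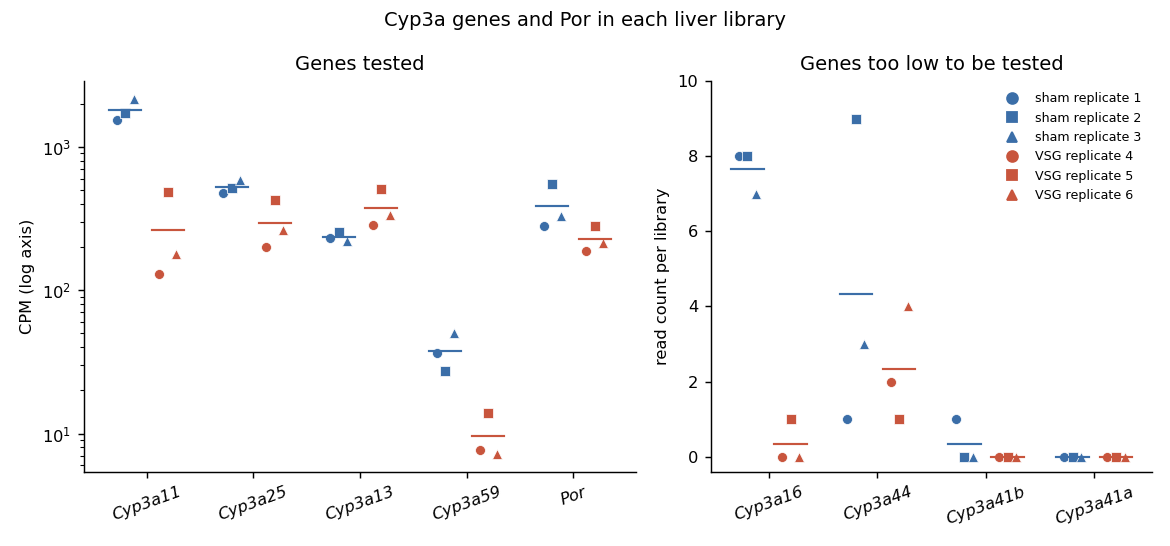
CPM on a log axis for the 5 genes tested (left) and read counts for the 4 genes too low to be tested (right), with 1 symbol per library and a line at each group mean. *Cyp3a11* and *Cyp3a59* lie lower in all 3 VSG libraries, *Cyp3a13* lies higher, the *Por* groups overlap, and *Cyp3a16* has 7 to 8 counts in sham and 0 to 1 in VSG libraries.

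The remaining 4 genes had fewer than 10 counts in each of these male livers. *Cyp3a16* had 8, 8 and 7 counts in sham livers and 0, 1 and 0 counts after VSG, so the groups did not overlap. Scaled by effective library size this is a sham over VSG ratio of 20.3 with an exact interval of 3.30 to 836, which covers counting error only and not reads misplaced from *Cyp3a11*, whose coding sequence is 92.8% identical. The gene was kept only when the low-count filter was dropped (log2 fold change -3.97, adjusted p 0.0233, edgeR) or with DESeq2 (adjusted p 0.0228). *Cyp3a44* had 1, 9 and 3 counts in the sham and 2, 1 and 4 counts in the VSG libraries. These overlapped, and the ratio of 1.64 had an interval of 0.608 to 4.85. *Cyp3a41a* was at 0 in all 6 libraries and *Cyp3a41b* had 1 count, in sham replicate 1. Together they had 1 count. Because nearly all of their windows are shared and the handling of multiply matching reads is not known, these zeros cannot tell a lack of RNA from reads that were left uncounted, and they give no basis for comparing the groups. Among the other Cyp3a genes, *Cyp3a57* had a log2 fold change of -1.20 (adjusted p 0.145, edgeR) at 0.191 to 1.44 CPM.

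With DESeq2, 5 members passed an adjusted p of 0.05 (*Cyp3a11*, *Cyp3a59*, *Cyp3a25*, *Cyp3a16* and, higher after VSG, *Cyp3a13*), where 19.4% of the genes it tested did.

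Summed over the 8 Cyp3a genes, the level was 2269, 2509 and 3014 CPM in the sham and 624, 1424 and 783 CPM in the VSG libraries. Every VSG library was lower, with VSG replicate 5 closest to the sham livers. With the 8 genes as 1 row, a quantity that does not depend on how counted reads were divided among the copies but does depend on whether multiply matching reads were counted, VSG livers had a log2 difference of -1.46 from sham livers (SE 0.340, adjusted p 0.0355, edgeR). The adjusted p rose to 0.0667, 0.0826, 0.134, 0.0718 and 0.131 without sham replicate 1, 2 or 3 or VSG replicate 4 or 6, and it was 0.00969 without VSG replicate 5 (log2 fold change -1.90).

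The make-up of this pool differed as well. *Cyp3a11* took 67.2%, 68.2% and 71.7% of Cyp3a counts in sham and 20.9%, 33.8% and 22.8% in VSG libraries. *Cyp3a13* took 10.2%, 10.1% and 7.27% in sham and 45.8%, 35.5% and 43.0% in VSG libraries. *Cyp3a25* took 19.4% to 21.0% in sham and 29.7% to 33.3% in VSG libraries. The groups did not overlap in any of these 3 shares. *Cyp3a13* had the most counts of the family in each VSG library and *Cyp3a11* in each sham library, without correction for gene length. These shares do not depend on library scaling but do depend on each other. An exact two-sided permutation test gave p = 0.1 for each share, which is the smallest p that 3 against 3 animals allow. Without *Cyp3a11*, the summed level was 744, 799 and 854 CPM in sham and 493, 943 and 605 CPM in VSG livers, and the groups overlapped.

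**Figure D2:**
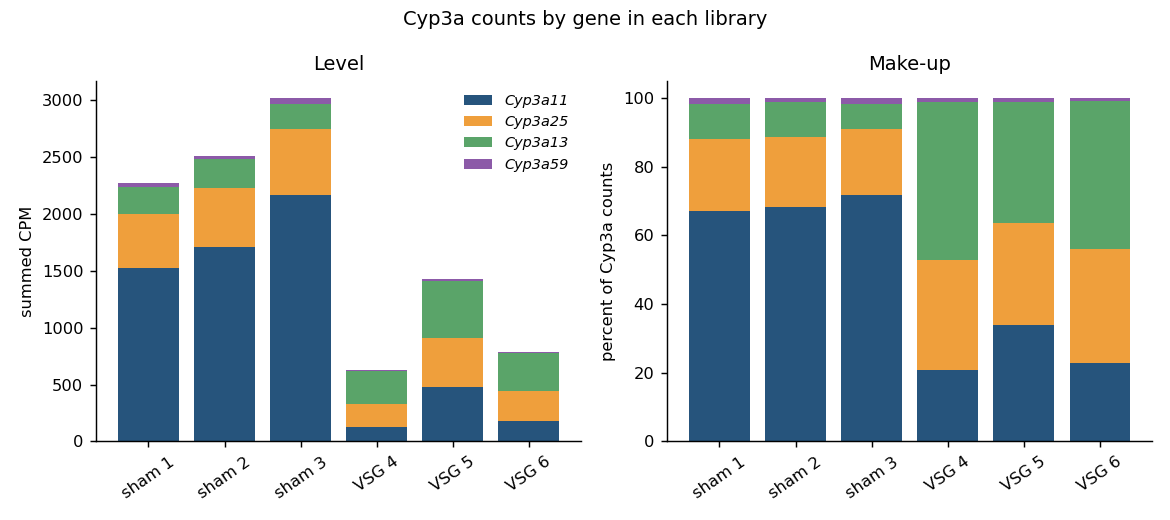
Stacked bars of Cyp3a CPM (left) and of the percent of Cyp3a counts (right) for each of the 6 libraries, coloured by gene; the 4 low genes are too small to see. *Cyp3a11* fills 67.2% to 71.7% of the sham bars and 20.9% to 33.8% of the VSG bars.

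Within a library, *Cyp3a11* had 3.20, 3.30 and 3.69 counts for each count of *Cyp3a25* in sham and 0.653, 1.14 and 0.682 in VSG livers. The groups did not overlap, and the exact permutation p was again 0.1, the smallest possible. Compared per length, *Cyp3a11* was at 353 ± 64.1 FPKM (counts per kilobase of gene length, from CPM; SD, n = 3) in sham and 51.7 ± 37.3 FPKM in VSG livers, and *Cyp3a25* was at 253 ± 26.4 and 141 ± 55.3 FPKM. *Cyp3a13* followed at 79.3 ± 5.79 and 127 ± 39.0 FPKM, *Por* at 95.9 ± 35.1 and 56.8 ± 11.9 FPKM, and *Cyp3a59* at 18.9 ± 5.68 and 4.81 ± 1.89 FPKM. The deposited length of *Cyp3a11*, 5093 bases, includes a transcript with a retained intron. With its coding transcript of 2344 bases the levels were 767 ± 139 FPKM in sham and 112 ± 81.1 FPKM in VSG livers. By either length *Cyp3a11* was the highest in every sham library. By deposited length *Cyp3a25* was above *Cyp3a13* in VSG replicates 5 (203 against 171 FPKM) and 6 (125 against 114 FPKM). It was slightly below in VSG replicate 4 (96.0 against 96.5 FPKM). By coding transcript length *Cyp3a25* was above *Cyp3a13* in all 3 VSG libraries. In the VSG livers the means of *Cyp3a25* and *Cyp3a13*, and of *Cyp3a11* by the coding transcript length, lay within 1 SD of each other.

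**Figure D3:**
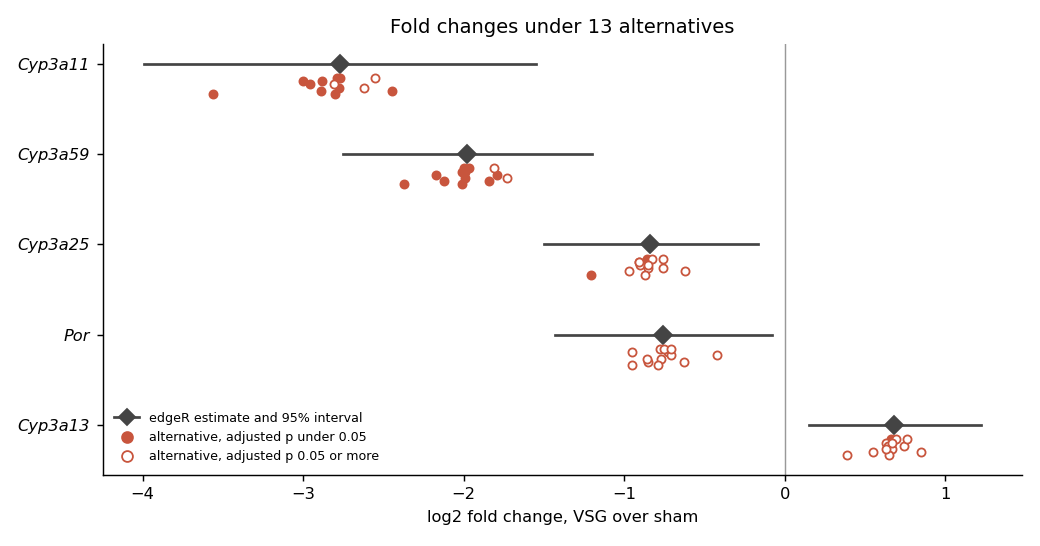
Log2 fold change (VSG over sham) of the 5 genes tested, with the edgeR estimate and 95% interval as a diamond and line and 13 alternatives as circles, filled where the adjusted p was under 0.05. *Cyp3a11* ran from -3.56 to -2.45, *Cyp3a59* from -2.37 to -1.73, *Cyp3a25* from -1.21 to -0.62, *Por* from -0.95 to -0.42 and *Cyp3a13* from 0.39 to 0.85, so no alternative turned a direction.

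Genes that moved most like each tested member over the 6 libraries were found by the root mean square (RMS) difference of centred log2 CPM among 9960 other genes. For *Cyp3a11* they were *Adgrv1* and *Plin4*, which encode an adhesion receptor and a lipid droplet coat protein (RMS 0.23 and 0.24 against a median of 1.61). *Plin4* was at 73.6, 127 and 125 CPM in sham and 7.38, 21.5 and 10.8 CPM in VSG livers. For *Cyp3a59* they were *Unc5b* and *Robo2*, both guidance receptors (0.20 and 0.23, median 1.08). For *Cyp3a25* they were *Pde3a* and *Hyi* (0.07 each, median 0.59), for *Cyp3a13* *Abca8b* and *BC024386* (0.10 and 0.11, median 0.47), and for *Por* *Cmbl* and *Dnmbp* (0.08 and 0.09, median 0.52). None of these is a cytochrome.

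The 2 receptors that act on Cyp3a genes were measured beside them. *Nr1i2*, encoding PXR, was at 72.9, 116 and 105 CPM in sham and 47.3, 61.5 and 50.9 CPM in VSG livers. It fell, with no overlap of the groups (log2 fold change -0.88, SE 0.195, adjusted p 0.0322, edgeR). The call was lost without sham replicate 2 (-0.74, adjusted p 0.0835, edgeR), sham replicate 3 (-0.84, 0.125), VSG replicate 4 (-0.80, 0.0776) or VSG replicate 6 (-0.85, 0.114). *Nr1i3*, encoding CAR, was at 181, 686 and 389 CPM in sham and 44.3, 256 and 238 CPM in VSG livers. Its groups overlapped and it did not pass the test (log2 fold change -1.22, adjusted p 0.265, edgeR). Of 20 transcription factors known to act on Cyp3a genes, 4 were called, where 14.7% of all genes tested were. *Nr1i2* and the coactivator gene *Ppargc1a* (-0.79) fell, and *Foxa3* (0.67) and *Onecut1* (2.40), which encodes HNF6, rose. The other 16 did not pass the test, and the median log2 fold change was -0.09. None of the 4 calls remained without sham replicate 3 or VSG replicate 4. That of *Ppargc1a* was also lost without sham replicate 2 (adjusted p 0.0969, edgeR) or VSG replicate 6 (0.0907). That of *Foxa3* was also lost without sham replicate 1 (adjusted p 0.0577, edgeR) or VSG replicate 6 (0.0890). *Onecut1* was at 24.8 and 26.7 CPM in VSG replicates 4 and 5 but 6.54 CPM in replicate 6, against 2.36 to 4.73 CPM in sham livers. Its adjusted p was 0.0341 by edgeR and 0.0890 by limma-voom and 0.0669 by limma on log2(FPKM + 1), and it was over 0.05 without any 1 library other than VSG replicate 6 (up to 0.134). *Hnf4a*, *Rxra* and *Cebpa* were among those that did not pass.

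Of 19 other target genes of PXR and CAR that could be tested, 11 fell, none rose, and 8 did not pass the test. Of all genes tested 7.87% were called lower, and this list was chosen with earlier results of these data known. The median log2 fold change was -1.73, also when the 2 genes with no count in any VSG library were set at their bound of 3 counts per library, and all 19 estimates were negative. Of these 11 calls 5 remained without sham replicate 3, 4 without VSG replicate 6, and 9 to 11 without any other 1 library. With a filter of at least 10 counts in every library 9 remained, and *Gsta1* and *Cyp2c55* were not tested. Among those that fell, *Abcb1a*, a drug efflux pump, was at 24.1, 19.3 and 22.5 CPM in sham and 4.16, 2.61 and 2.43 CPM after VSG (log2 fold change -2.84, adjusted p 0.00273, edgeR). *Gstm1*, a glutathione transferase, was at 1272, 1064 and 971 CPM in sham and 174, 264 and 208 CPM in VSG livers (-2.36). The groups overlapped in neither gene, and VSG replicate 5 was the highest VSG library for *Gstm1* but not for *Abcb1a*. The others were *Gsta1*, *Gsta2*, *Gstm2*, *Gstm3*, *Gstt1*, *Cyp2c55*, *Slco1a4*, *Abcc3* and *Papss2*. *Cyp2b10*, the best known CAR target, had no count in any VSG library but 1.14, 59.0 and 2.09 CPM in sham libraries, and did not pass (adjusted p 0.0945, edgeR), except with no filter (0.0254) or without sham replicate 2, its highest library (0.0335). Many of these genes also have other regulators.

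**Figure D4:**
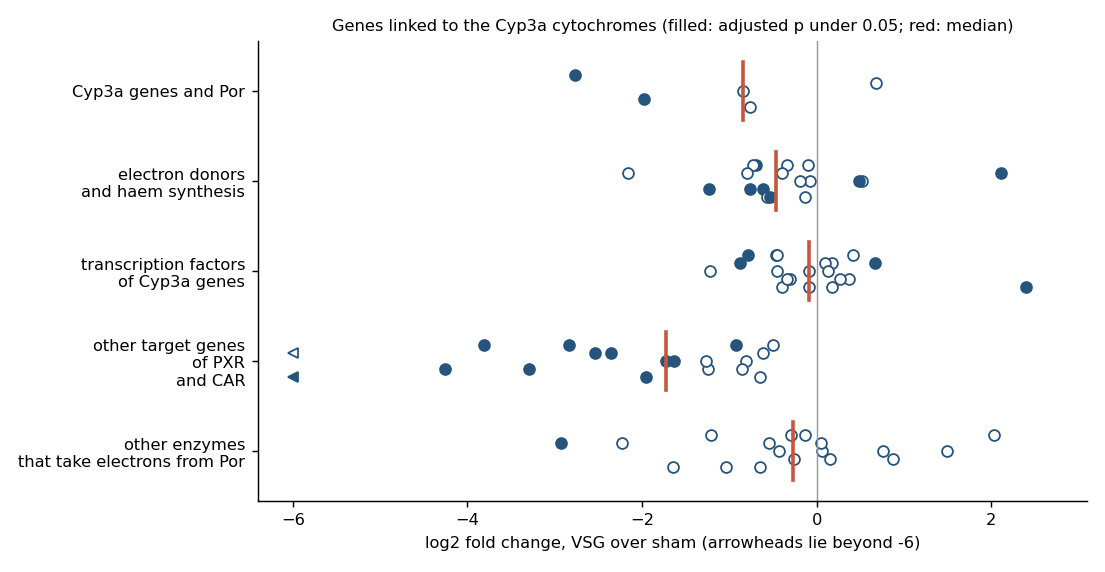
Log2 fold changes (VSG over sham) of the tested genes of 5 lists, filled where the edgeR adjusted p was under 0.05, with a red line at each list's median; height within a list has no meaning. In the PXR and CAR targets all 19 points lie below 0 and the median is -1.73, against -0.09 in the transcription factors and -0.28 in the list of other enzymes served by *Por*, which is -0.49 with the 10 P450 genes that stand in other lists.

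Electron donors and haem, which P450 enzymes need, were examined next. Of 18 such genes 5 fell, 2 rose and 11 did not pass the test, with a median log2 fold change of -0.46. By comparison, 7.87% of all genes tested were called lower and 6.79% higher. None of the 7 calls in this list remained without sham replicate 3 or without VSG replicate 6. *Cyb5r3*, which encodes NADH-cytochrome b5 reductase, was at 379, 454 and 457 CPM in sham and 149, 222 and 179 CPM in VSG livers and fell without overlap (log2 fold change -1.23, adjusted p 0.0130, edgeR). This call was lost without sham replicate 3 (adjusted p 0.0719, edgeR) or VSG replicate 6 (0.0684). *Pgrmc1* (-0.76) and *Pgrmc2* (-0.53), haem-binding partners of P450 enzymes, fell too, as did *Alad* (-0.70) of haem synthesis and *Blvrb* (-0.62), a biliverdin reductase. *Hmox1* (2.11) and *Hmox2* (0.48), haem oxygenases that break haem down, rose. *Hmox1* was at 48.6, 28.0 and 37.6 CPM in sham and 241, 104 and 150 CPM in VSG livers. Its call was lost without sham replicate 3 (adjusted p 0.0876, edgeR) or VSG replicate 6 (0.0649). The calls of *Pgrmc2* and *Blvrb* were also lost without sham replicate 2 (adjusted p 0.0616 and 0.0654, edgeR), and that of *Pgrmc2* without VSG replicate 4 (0.0574). *Alas1*, the first and rate-limiting enzyme of haem synthesis, was at 382, 1592 and 699 CPM in sham and 109, 214 and 274 CPM in VSG livers. Its groups did not overlap, but the fold change of -2.16 missed the threshold (adjusted p 0.0513, edgeR) and passed with DESeq2 (0.000491), with total counts (0.0252), with no filter (0.0169) and without sham replicate 1 (0.0424). Without sham replicate 2, its highest library, the fold change was -1.44 on the log2 scale (adjusted p 0.105, edgeR). *Cyb5a*, encoding cytochrome b5, had a log2 fold change of -0.73 (adjusted p 0.109, edgeR) and overlapping groups, and passed with DESeq2 (0.0405). The calls of *Pgrmc1*, *Alad* and *Hmox2* were lost without any 1 of 5 libraries, all but VSG replicate 5, with adjusted p-values by edgeR of up to 0.143, 0.164 and 0.0989. The call of *Pgrmc1* was also lost with limma on log2(FPKM + 1) (adjusted p 0.0578) and that of *Hmox2* with total counts (log2 fold change 0.34, adjusted p 0.0915, edgeR). That of *Alad* was lost with limma-voom (adjusted p 0.0546), limma on log2(FPKM + 1) (0.0601) and RLE factors (0.0521).

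Other enzymes that depend on the reductase were examined in the same way. Of 18 other enzymes that take electrons from *Por*, 1 fell (*Cyp2a5*, log2 fold change -2.93, adjusted p 0.0241, edgeR), none rose and 17 did not pass the test, with a median of -0.28. This list leaves out 10 tested P450 genes outside Cyp3a that stand in the lists of PXR and CAR targets and of sex-biased genes, of which 4 fell (*Cyp2b9*, *Cyp2b13*, *Cyp2a4* and *Cyp2c55*). With them 5 of 28 fell, none rose and the median was -0.49, a count added after the values were seen. Among all genes tested 7.87% were called lower and 6.79% higher. *Cyp2a5*, a coumarin hydroxylase, was at 317, 559 and 268 CPM in sham and 18.1, 82.5 and 49.8 CPM in VSG livers, without overlap. The call was lost without sham replicate 2 (adjusted p 0.0623, edgeR), sham replicate 3 (0.0820) or VSG replicate 6 (0.0951). The 17 others, among them *Cyp1a2* and *Cyp2e1*, had estimates from -2.23 to 2.03. Of the 23 genes called in these 4 lists, 6, 11 and 18 lost their call when sham replicates 1, 2 and 3 were left out in turn. Leaving out VSG replicates 4, 5 and 6 in turn ended 9, 1 and 18 of these calls. Around the cluster, 24 of 40 other coding genes within 1000 kb were tested. Of these 2 fell, *Bri3* and *Atp5j2* (named after their values were seen), where 7.87% of all genes tested were called lower. None rose, and the median log2 fold change was 0.08.

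As *Cyp3a41a*, *Cyp3a41b* and *Cyp3a44* are female-type genes, lists of sex-biased liver genes were counted. Of 12 female-biased genes 8 could be tested, 5 of which fell (*Cyp2b9*, *Cyp2b13*, *Cyp2a4*, *Hao2* and *Acot3*). The shares over all genes tested were 7.87% called lower and 6.79% called higher. *Cyp2b9* was at 73.5, 333 and 293 CPM in sham and 3.03, 3.38 and 1.62 CPM after VSG (log2 fold change -6.44, adjusted p 0.00656, edgeR). The other four calls were lost without VSG replicate 6, and 3 of the 5 were lost without sham replicate 3 and 1 without sham replicate 2. With limma-voom *Cyp2b13* (adjusted p 0.0600) and *Cyp2a4* (0.0604) were not called, and with limma on log2(FPKM + 1) *Hao2* was not (0.0590). Of 12 male-biased genes 1 rose (*C6*, not called without sham replicate 3 or VSG replicate 6) and 11 did not pass the test. Among these 11, *Hsd3b5* was called higher with DESeq2 (log2 fold change 6.53, adjusted p 0.00532). It was also called with total counts (adjusted p 0.0432, edgeR), with no filter (0.0165) and without VSG replicate 4 (0.00787). *Mup20* was called lower without VSG replicate 5 (log2 fold change -2.14, adjusted p 0.0238, edgeR). *Cyp3a41a*, *Cyp3a41b* and *Cyp3a44* had 0 to 9 counts in each library. For *Cyp3a41a* and *Cyp3a41b* these counts cannot tell a lack of RNA from reads left uncounted, and they give no basis for comparing the groups.

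Other genes moved with the operation in the same libraries. All 15 acute phase genes, secreted by hepatocytes in inflammation, rose, and their summed level was 19144 to 21151 CPM in sham livers and 142160, 68321 and 118407 CPM in VSG replicates 4, 5 and 6. All 10 neutrophil markers rose, with a summed level of 7.45 to 22.3 CPM in sham livers and 1848, 158 and 861 CPM in the VSG libraries. Of all genes tested 6.79% were called higher. With at least 10 counts required in every library only 3 of the 10, *Csf3r*, *S100a8* and *S100a9*, were tested, and they were called. The others were under 10 counts in at least 1 library. Of the 15 acute phase calls 5, 7 and 14 were lost when sham replicates 1, 2 and 3 were left out in turn, and 3, 0 and 10 when VSG replicates 4, 5 and 6 were. With limma-voom 1 of them was lost and with limma on log2(FPKM + 1) 3 were. Of the 10 neutrophil calls 3, 9 and 9 were lost without the respective sham libraries, 1, 0 and 9 without the respective VSG libraries, and 7 with limma-voom and 2 with limma on log2(FPKM + 1). VSG replicate 5, which had the highest level of its group in each of the 5 tested members, was the lowest VSG library in both sums. This put it nearest to the sham livers for *Cyp3a11*, *Cyp3a59*, *Cyp3a25* and *Por* but farthest from them for *Cyp3a13*. Of 10 macrophage markers 4 rose, none of which was called when VSG replicate 6 or either of sham replicates 2 and 3 was left out. Their summed levels overlapped (360 to 846 CPM in sham, 806 to 2208 CPM in VSG livers). *Csf1r* of this list was called higher only with DESeq2 (adjusted p 0.0161), with no filter (0.0466, edgeR) or without VSG replicate 5 (0.0248, edgeR). Of 7 stellate cell markers 1 fell (*Reln*), and the sums of 605 to 918 CPM in sham and 293 to 567 CPM in VSG livers did not overlap. All 7 estimates were negative, with a median log2 fold change of -1.0. With DESeq2 *Lrat* (adjusted p 0.0150), *Dcn* (0.0398), *Col1a1* (0.00950) and *Col3a1* (0.0443) were called lower too. Of 8 small intestine markers 2 could be tested: *Fabp2* fell, and *Vil1* had a log2 fold change of 0.20 (adjusted p 0.793, edgeR). Of the other six, *Cdx1*, *Cdx2*, *Lct*, *Sis* and *Slc15a1* were at 0 to 0.226 CPM, and *Alpi* reached 0.480 CPM. None of the endothelial, lymphocyte and erythroid markers was called, and *Sox9* alone of the bile duct markers rose. The erythroid marker *Hbb-bs* was called higher only with DESeq2 (adjusted p 0.0256) or no filter (0.0498, edgeR). The calls of *Reln* and *Sox9* were lost without any 1 of the sham libraries or VSG replicate 6, and that of *Sox9* also with limma-voom (adjusted p 0.0540) and limma on log2(FPKM + 1) (0.0506), while *Fabp2* was called without any 1 of the 6 libraries. The part of any of these genes or cells in the values of the Cyp3a genes and *Por* was not tested.

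**Figure D5:**
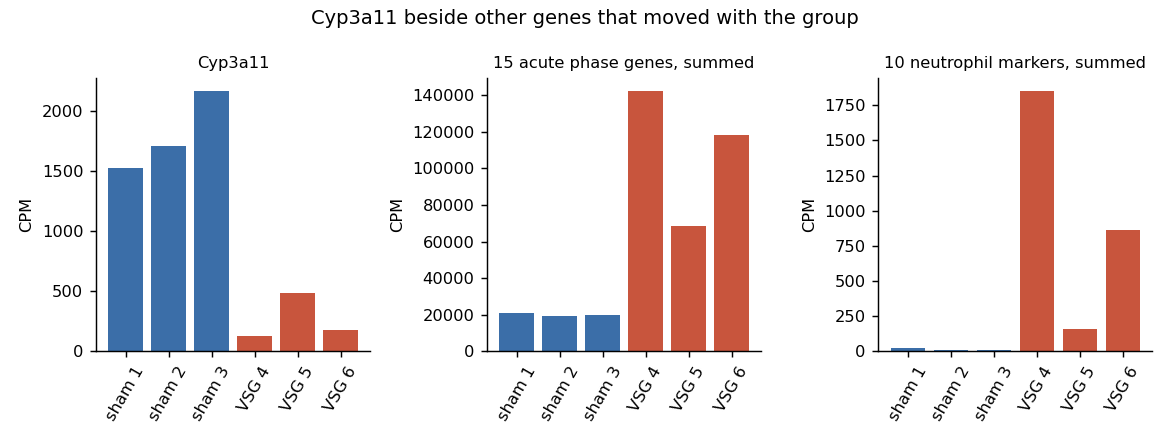
CPM of *Cyp3a11* (left), summed CPM of 15 acute phase genes (middle) and of 10 neutrophil markers (right), with 1 bar per library. VSG replicate 5 has the highest *Cyp3a11* of the VSG libraries (481 CPM) and the lowest of both sums (68321 and 158 CPM).

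Hepatocyte markers, which check the tissue label, were high in all libraries. Their sum was 73128 to 110609 CPM in sham and 57662 to 86740 CPM in VSG livers, the groups overlapped and none of 9 passed the test. With DESeq2 *Ttr* was called lower (log2 fold change -0.85, adjusted p 0.0173). Relative to 1000 CPM of these markers, a scale chosen after the values were seen, *Cyp3a11* was at 20.8, 15.5 and 28.8 CPM in sham and 2.26, 5.55 and 2.06 CPM in VSG livers. *Cyp3a59* (0.247 to 0.665 and 0.0830 to 0.161 CPM), *Cyp3a13* (2.29 to 3.16 and 3.88 to 5.83 CPM) and *Por* (3.82 to 4.93 and 2.47 to 3.27 CPM) also did not overlap on this scale, whereas *Cyp3a25* did (4.68 to 7.79 and 3.01 to 4.88 CPM). In whole liver, fewer cells that express a gene and less RNA of it in each cell cannot be told apart.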

How the data were processed

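Poly(A) RNA of about 40 mg of liver from each of 6 mice was sequenced as strand-specific libraries. The authors aligned reads with STAR 2.6.0 to mm10 and deposited raw counts per gene from featureCounts, as version 2.0.3 in the processing notes and another version in the study's methods; handling of multiply matching reads and strand is not given in the sources used here. The deposited gene length was used for FPKM (TMM-scaled library sizes). Of 55385 gene identifiers, 55144 matched the symbols of the reference table (241 did not).

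Genes were filtered with filterByExpr (minimum count 10, total 15), scaled with TMM factors (0.897 to 1.15) and tested with edgeR 4.0.16 (quasi-likelihood test, R 4.3.3), with Benjamini-Hochberg adjustment over 14454 genes and a threshold of 0.05. In data simulated for this comparison over 14454 genes, 67, 67 and 66 genes were changed by 1, 2 and 3 log2 units. Of these, 37.3%, 83.6% and 98.5% were called, beside 17 unchanged genes. Far fewer genes were changed than the 2118 called in the data, so these shares need not hold for the data. Levels are CPM with TMM-scaled library sizes. Alternatives were DESeq2 1.42.0, limma-voom and limma 3.58.1 on log2(FPKM + 1), RLE factors, total counts, other filters, summed rows and each library left out. Each library came from 1 animal, and all replicate pairs differed by more than counting noise. Intervals of count ratios are exact at the 95% level.

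Named genes were the 9 members, list genes past the threshold or with a direct role (*Nr1i2*, *Nr1i3*, *Cyb5a*, *Alas1*), and for each tested member the 2 genes with a mean of at least 5 CPM and the most similar centred log2 CPM (prior count 2). Other genes (*Cyp3a57*, *Hnf4a*, *Rxra*, *Cebpa*, *Cyp2b10*, *Cyp1a2*, *Cyp2e1*, *Bri3*, *Atp5j2* and the small intestine markers that were not called) were named after their values were seen. So were *Hsd3b5*, *Mup20*, *Csf1r*, *Lrat*, *Dcn*, *Col1a1*, *Col3a1*, *Hbb-bs* and *Ttr*, which were called only under alternatives. The members and lists were chosen with earlier results of these data known.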

Additional observations from a re-analysis of the deposited data

How the results depend on the processing

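The number of members past the threshold (2) was unchanged under RLE size factors, limma on log2(FPKM + 1), limma-voom, scaling by total counts and a filter of at least 10 counts in every library, and with *Cyp3a16*, *Cyp3a41a*, *Cyp3a41b* and *Cyp3a44* summed. It was 5 with DESeq2, 3 with no low-count filter and 0 (without sham replicate 3 or VSG replicate 6) to 3 (without VSG replicate 5) with single libraries left out. The log2 fold change of the summed Cyp3a counts ran from -1.90 to -1.23 when single libraries were left out. The number of genes called in all was 2118, against 3272 with DESeq2, and it ran from 159 (without sham replicate 3) to 2732 (without VSG replicate 5). Leaving out VSG replicates 4 and 6 in turn gave 1076 and 210, and sham replicates 1 and 2 gave 1214 and 797. Total counts gave 486 higher and 1512 lower genes, against 981 and 1137. Over 31 genes (the tested members, the linked genes that were called, and *Nr1i3*, *Cyb5a* and *Alas1*) no estimate changed sign. Other genes named as not called, and the genes most like each member, were not part of this count. Of 336 alternative fold changes of results called by edgeR, 256 kept the call and 80 lost it, and of 78 of results not called, 70 stayed so and 8 gained a call. Of 27 alternative counts 10 moved by over 1.5 times. For the summed *Cyp3a41a* and *Cyp3a41b* counts, only the unfiltered fit gave an adjusted p (log2 fold change -1.82, adjusted p 0.555, edgeR), which rests on 1 count and is no estimate of a level or a difference. No paired analysis was possible because the replicate numbers 1 to 3 and 4 to 6 are not shared between the groups. With 3 animals a group, a change of 1 log2 unit was often missed in the simulated data, and counts under 3 set no level.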
